A study of Bos taurus and Sus scrofa with 10 samples.

Results

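The step from morula to blastocyst was compared in cow (Bos taurus) embryos between 1 morula library and 1 blastocyst library of total RNA. Every row of the cow gene table with at least 1 RPM (reads per 1000000 reads of the library) in either library was taken, which gave 12653 of 22845 rows (55.4%). A row entered with 4 reads in the morula library (1.03 RPM) or 15 reads in the blastocyst library (1.06 RPM), and stayed out with 3 reads (0.769 RPM) or 14 reads (0.987 RPM). Of the 12653 rows, 11682 carried a gene symbol and 971 only an identifier. Among the 10192 rows left out, 8161 had 0 reads in both libraries.

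The series holds 10 libraries, 1 per stage and species, from cow and pig oocytes, embryos of 2-4 cells, embryos of 8-16 cells, morulae and blastocysts (5 stages). Its title places it in work on DNA methylation and imprinted genes before implantation. The labels give each sample only its species and stage, with no treatment, genotype or breed, and neither the source of the embryos nor the number pooled per library. With 1 library per stage no difference has a replicate check, and intervals cover counting error only.

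The morula is a ball of cells that compact against each other and begin to differ by position. In the blastocyst the outer cells form the trophectoderm, a polarised epithelium that seals itself with junctions, pumps fluid into a cavity and later builds the fetal part of the placenta. The inner cell mass gives rise to the epiblast, the source of the fetus, and to the primitive endoderm, which lays down basement membrane and forms the yolk sac. In cattle this happens after the main activation of the embryonic genome, when most maternal RNA has been cleared.

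The morula library held 3899291 reads and the blastocyst library 14182045, so a count of 0 allows up to 0.769 RPM in the morula and up to 0.212 RPM in the blastocyst (3 reads). Rows of the mitochondrial chromosome took 9.15% of the morula reads (95% Wilson interval 9.12 to 9.18) and 30.2% of the blastocyst reads (30.2 to 30.2). RPM is relative to all reads, so this share lowers the blastocyst value of every other gene. All gene rows together, mitochondrial ones included, took 71.7% of the morula reads and 81.6% of the blastocyst reads, which works the other way. The difference used throughout is log2(RPM + 1) in the blastocyst minus the same in the morula, and "rose" or "fell" means that it reached 2 or -2 (4-fold), a scale that understates the change of low genes. The median difference over all compared rows was -0.11, or 0.15 over the same rows when both libraries were scaled to reads in non-mitochondrial gene rows. Of the compared rows 1175 overlap another row and may share reads with it, which is marked where such a row is named. RPM is not divided by gene length, so levels are compared between libraries and not between genes. In whole embryos fewer cells of a type and less RNA per cell cannot be told apart.

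Of the 12653 rows, 2963 changed (23.4%). Higher in the blastocyst were 1506 rows (11.9%), and lower were 1457 rows (11.5%). Shares of members are read against these. With scaling to non-mitochondrial gene reads, which brought 13221 rows over the minimum, 2138 were higher and 1432 lower. A difference of 3 or more, 8-fold, was reached upward by 551 rows and downward by 481, and a difference of 5 or more, 32-fold, by 78 and 41. At least 1 RPM was present in both libraries for 9471 rows, in the morula alone for 1745 and in the blastocyst alone for 1437.

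**Figure D1:**
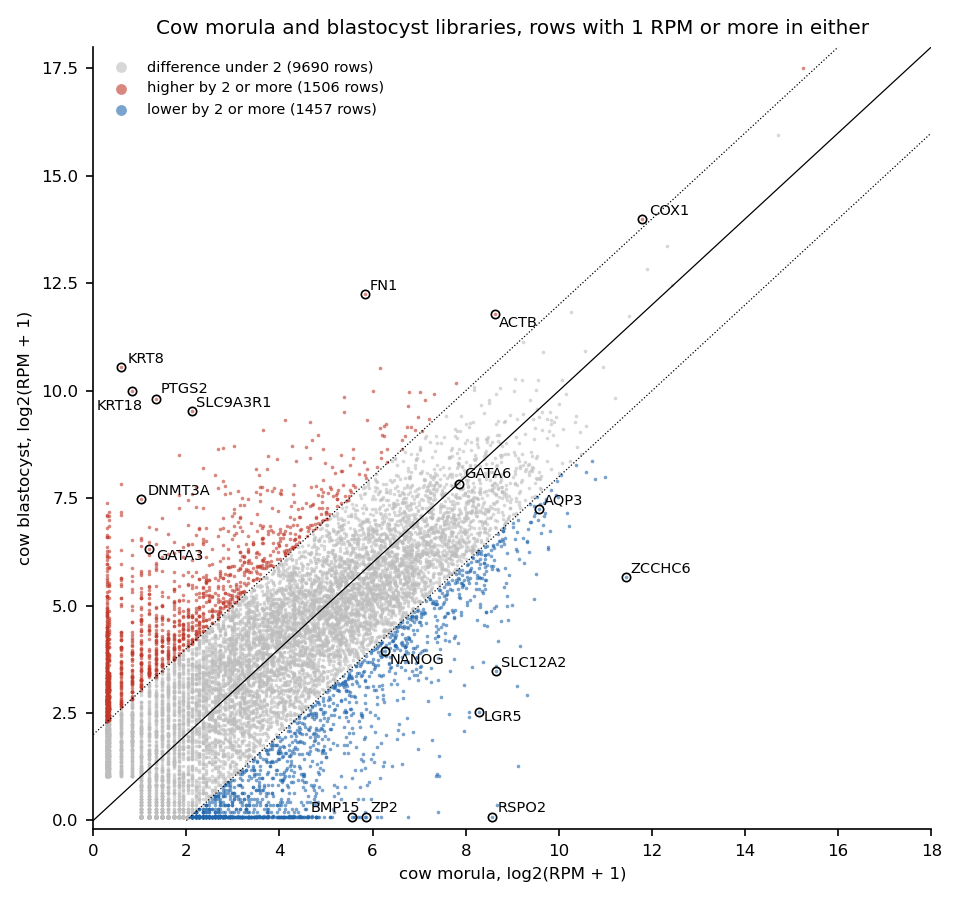
Each point is 1 of the 12653 compared rows, with log2(RPM + 1) in the cow morula library on the x axis and in the cow blastocyst library on the y axis. The solid line marks equal values and the dotted lines a difference of 2; red rows were higher (1506), blue rows lower (1457), and open circles mark named genes, with KRT8 far above and RSPO2 far below the lines.

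The earlier cow libraries show where these rows came from. Among the 1506 rows that rose, 1277 had their highest value of the 5 libraries in the blastocyst. Of them 114 had 0 reads in all 4 earlier libraries, whereas 335 were under 1 RPM in the morula after reaching 1 RPM or more earlier, and 297 had first fallen by 2 or more between oocyte and morula. Among the 1457 rows that fell, the highest library was the oocyte for 178, the 2-4 cell embryo for 243, the 8-16 cell embryo for 367 and the morula for 669. At least 1 RPM was present in the oocyte for 1130 of the falling rows (77.6%), whereas 299 were under 1 RPM in both the oocyte and the 2-4 cell library and reached it at the 8-16 cell or morula stage. In the blastocyst 318 of them had 0 reads.

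Most trophectoderm transcription factors that could be compared rose at this step. Of 18 compared factors (21 were in the table), 10 rose (55.6%) and none fell, with a median difference of 3.50, or 2.98 with members at 0 reads set at the 3-read floor. GATA3, a zinc finger factor that drives the trophoblast programme, was at 3.45, 3.83, 0.552, 1.28 and 78.8 RPM in the oocyte, 2-4 cell, 8-16 cell, morula and blastocyst libraries. GATA2, its partner in trophoblast gene control, was at 18.3, 30.6, 7.73, 0.513 and 76.9 RPM. GATA3 was thus low before the blastocyst, while GATA2 had oocyte RNA that ran down to 2 reads in the morula before the gene rose. The ratio of blastocyst to morula was 61.4 for GATA3 (95% counting interval 26.2 to 189.5) and 149.98 for GATA2 (41.4 to 1240).

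Further factors rose with them. GRHL1 and GRHL2, grainyhead factors that control junction genes, went from 1.03 to 90.8 RPM (difference 5.50) and from 0.769 to 71.2 RPM (5.35; overlapping row). KLF6, a zinc finger factor of the KLF family, went from 1.54 to 86.1 RPM (5.10), and the homeobox gene MSX2 from 0.769 to 50.5 RPM (4.86). By contrast, TFAP2C and TEAD4, which act at the start of the lineage, were already on in the morula. TFAP2C had 0 reads in the oocyte and 2-4 cell libraries and 231.9, 119.2 and 104.7 RPM from the 8-16 cell stage on (difference -0.19). TEAD4, the DNA-binding partner of the Hippo effectors, had 0 reads in the oocyte and 2-4 cell libraries, then 5.89, 17.7 and 8.46 RPM (-0.98). TFAP2A was low in both libraries, at 2.05 RPM in the morula and 4.09 in the blastocyst (0.74).

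The keratins of simple epithelia gave the largest differences of all. KRT8, which pairs with KRT18 in intermediate filaments, had 5, 1, 0 and 2 reads in the 4 earlier libraries and 1490 RPM in the blastocyst, a difference of 9.95. KRT18 had 0 reads in the oocyte, 2-4 cell and 8-16 cell libraries, 3 reads in the morula and 1021 RPM in the blastocyst, a difference of 9.17. Neither had more than 5 reads in an earlier library, and both were high in the blastocyst. Blastocyst to morula ratios were 2906 for KRT8 (counting interval 804.3 to 23994) and 1327 for KRT18 (453.9 to 6434), wide because of the few morula reads. The authors' table places KRT18 (27171925 to 27175575, minus strand) and KRT8 (27213750 to 27221177, plus strand) side by side on chromosome 5. Keratin genes have processed copies in mammalian genomes, and how reads shared with such copies were counted is not given in the sources used here.

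Among 13 compared keratin and desmosome genes 10 rose (76.9%) and 1 fell, with a median of 2.85 (2.47 with members at 0 reads at the floor). KRT19 went from 0 reads to 61.1 RPM and KRT7 from 1.03 to 23.8 RPM (3.62). Desmosomes are the spot junctions to which keratins anchor. DSP, desmoplakin, which links keratins to the junction, was at 24.3, 45.1, 4.79, 11.5 and 538.9 RPM over the 5 libraries (5.43), and JUP, plakoglobin, went from 8.98 to 97.5 RPM (3.30). The member that fell was DSC3, a desmocollin, with 0 reads in the oocyte and 2-4 cell libraries, 29.8 and 24.9 RPM in the 8-16 cell embryo and morula, and 1 read (0.0705 RPM) in the blastocyst.

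Adherens and tight junction genes moved less and in 1 direction. Of 24 compared genes 10 rose (41.7%) and none fell, all 24 differences were above 0, and the median was 1.74. The genes that rose included tight junction scaffold and claudin genes. CLDN4 had 0 reads up to the 8-16 cell stage, 2.82 RPM in the morula and 51.6 in the blastocyst (3.78). TJP3, a zonula occludens scaffold, went from 0.769 to 46.3 RPM (4.74), and CGN, cingulin, from 6.41 to 78.9 RPM (3.43). CDH1, E-cadherin, which mediates compaction, was at 165.7 RPM in the morula and 230.1 in the blastocyst (0.47). TJP1 and OCLN, zonula occludens-1 and occludin, were at 67.7 and 234.8 RPM (1.78) and at 92.6 and 200.8 RPM (1.11; overlapping row for OCLN). These 3 genes did not reach the threshold.

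Cortical cytoskeleton genes rose next to them: 13 of 26 compared polarity and actin genes (50%) rose and 1 fell (0 with scaling to non-mitochondrial gene reads), with a median of 2.02. SLC9A3R1, the scaffold NHERF1 of apical membranes, was at 24.5, 23.9, 6.99, 3.33 and 738.1 RPM over the 5 libraries, a difference of 7.41. EZR, ezrin, which ties actin to the apical membrane and binds NHERF1, was at 604.7, 655.6, 188.1, 40.8 and 727.1 RPM (4.12). Both ran down to the morula and were highest in the blastocyst. ACTB, beta-actin, went from 392.1 to 3506 RPM (3.16) and ACTG1, gamma-actin, from 40.8 to 925.1 RPM (4.47). TPM4, a tropomyosin, went from 70.3 to 1490 RPM (4.39) and MYL6, a myosin light chain, from 8.46 to 160.0 RPM (4.09). PARD6B, part of the apical PAR complex, was at 11.8 and 15.5 RPM (0.37).

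Calcium-binding S100 and membrane-binding annexin genes had, after the keratins, the highest share of rises of the 42 lists. Of 15 compared members 11 rose (73.3%) and 1 fell, with a median of 2.72. S100A16 went from 0 reads to 110.4 RPM, at least 143.5-fold higher, and S100A14 from 5.39 to 400.9 RPM (5.98). ANXA3 went from 0 reads to 51.4 RPM, ANXA6 from 6.16 to 218.9 RPM (4.94) and ANXA2 from 74.6 to 496.1 RPM (2.72). S100A10, the partner of ANXA2, was at 6.92 and 30.2 RPM (1.98), just under the threshold.

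**Figure D2:**
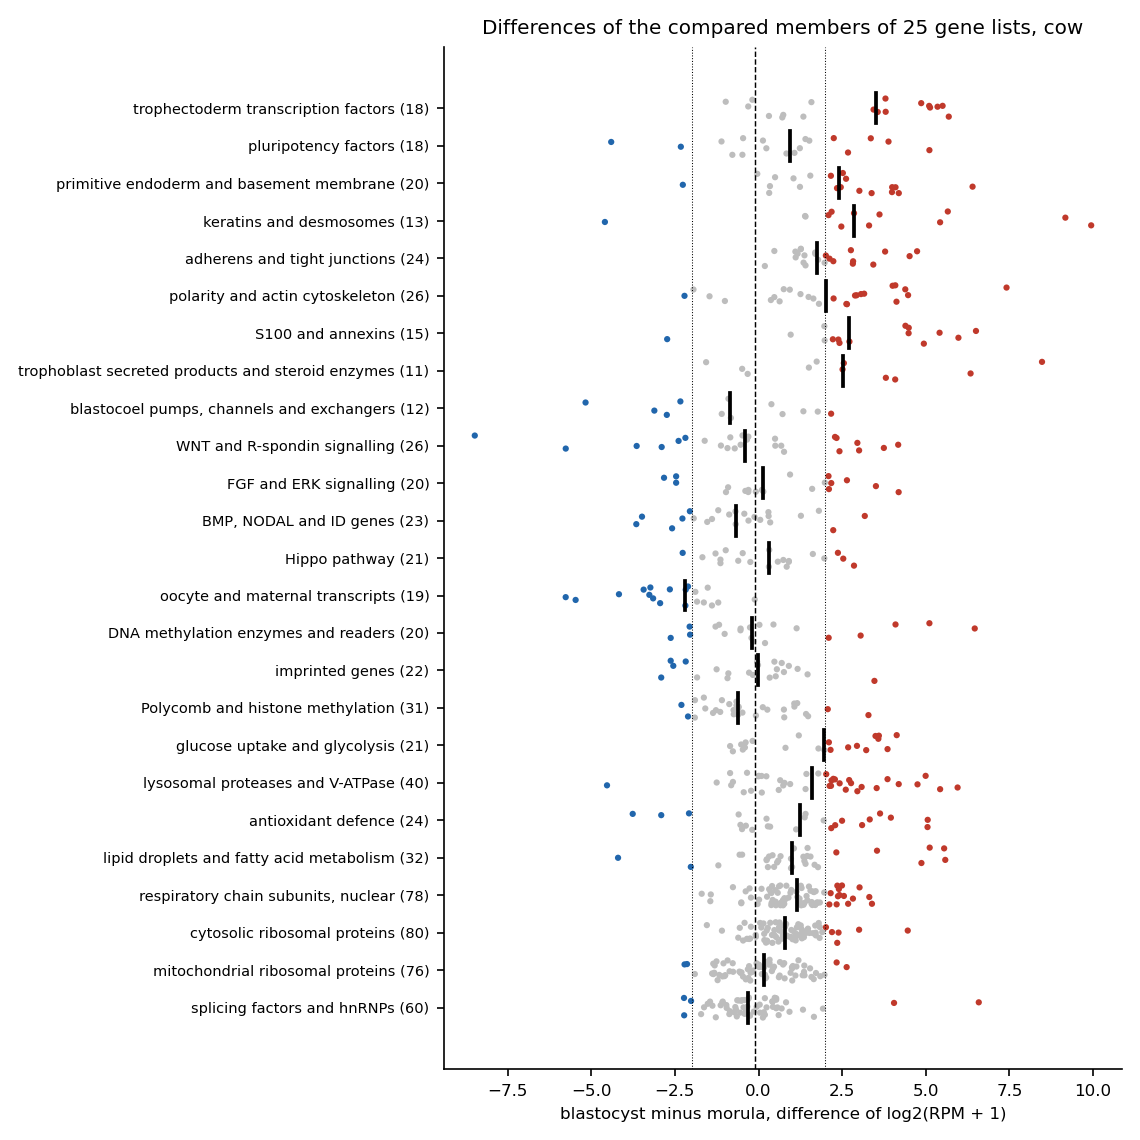
Each point is 1 compared gene of a list, placed on the x axis by its difference of log2(RPM + 1) between the cow blastocyst and morula libraries; red points rose, blue points fell, black bars are list medians, and the number of compared members stands beside each list name. The dashed line is the median of all compared rows (-0.11) and the dotted lines mark 2 and -2; keratins, trophectoderm factors, S100 genes and basement membrane genes lie mostly right of 2, oocyte transcripts left of 0.

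Genes for fluid transport did not move together. The blastocyst cavity fills as the sodium pump moves ions across the trophectoderm and water follows, partly through aquaporins. Of 12 compared pumps, channels and exchangers 1 rose (0 with median scaling) and 4 fell, with a median of -0.86, and 9 more were under 1 RPM in both libraries. ATP1B1, a beta subunit of the sodium pump, was at 4.36 and 5.99 RPM in the morula and blastocyst (0.38; overlapping row). AQP3, an aquaporin that also carries glycerol, was at 7.71, 5.41, 112.5, 765.3 and 150.5 RPM. AQP3 thus peaked in the morula and fell (-2.34), although with quantile normalisation the difference was -1.94. SLC12A2, the sodium-potassium-chloride cotransporter NKCC1, was at 312.0, 234.5, 782.0, 401.6 and 10.2 RPM (-5.17), and CFTR, a chloride channel, at 205.3, 150.9, 54.5, 12.6 and 0.564 RPM (-3.12). Both were lowest in the blastocyst.

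Of the genes for trophoblast products and steroid enzymes, 21 were in the table and 11 could be compared; 6 rose (54.5%) and none fell, with a median of 2.51 (2.03 with members at 0 reads at the floor). PTGS2, the cyclooxygenase that starts prostaglandin synthesis, was at 91.3, 60.8, 4.42, 1.54 and 902.3 RPM over the 5 libraries, a difference of 8.47. PTGS2 was present in the oocyte, ran down to 6 reads in the morula and was highest in the blastocyst. PTGES, a prostaglandin E synthase, went from 1.54 to 13.5 RPM (2.51). PAG2, a pregnancy-associated glycoprotein of ruminant trophoblast, had 0 reads in all 4 earlier libraries and 98.6 RPM in the blastocyst, at least 128.2-fold above the morula floor. The steroid enzyme CYP11A1 went from 1 read to 16.6 RPM (3.81) and HSD3B from 0 reads to 19.9 RPM. Cumulus and granulosa markers, a list that also holds PTGS2 and CYP11A1, summed to 70.0 RPM in the morula and 1018 in the blastocyst. Their part was not tested. PAG genes form a family of close copies, so reads may be split among them. The IFN-TAU row, the ruminant signal of pregnancy recognition, had 0 reads in the morula and 5 in the blastocyst, and stayed under 1 RPM; it was singled out after its values were seen.

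Pluripotency factors split. Of 18 compared members 5 rose (27.8%) and 2 fell, with a median of 0.95. The list includes DNMT3B, a DNA methylation enzyme, which had its largest rise (5.11) and is counted again with the DNA methylation machinery. POU5F1, OCT4, was at 2.64, 4.73, 1.84, 17.4 and 42.4 RPM over the 5 libraries (1.23), and its partner SOX2 at 9.53, 15.1, 2.76, 14.9 and 27.3 RPM (0.83). Both were highest in the blastocyst without reaching the threshold. NANOG, the epiblast homeobox factor, had 0 reads in the oocyte and 2-4 cell libraries, 116.0 RPM at the 8-16 cell stage, 76.4 in the morula and 14.5 in the blastocyst (-2.32). NR5A2, an orphan nuclear receptor, was at 1.83, 2.48, 10.9, 54.6 and 1.62 RPM (-4.41), a peak confined to the morula library among the 5. TFCP2L1, a factor of the naive pluripotency network, went from 7.95 to 131.2 RPM (3.88; overlapping row) and OTX2, a homeobox factor, from 2.31 to 32.9 RPM (3.36).

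Primitive endoderm and basement membrane genes rose in most members: 12 of 20 compared members (60%) rose and 1 fell, with a median of 2.40. FN1, fibronectin, was at 9.13, 9.01, 7.18, 56.4 and 4843 RPM over the 5 libraries, a difference of 6.4 and a ratio of 85.8 (counting interval 75.2 to 98.4). FN1 alone took 68681 reads in the blastocyst library, the most of any non-mitochondrial row with a symbol. LAMA1, a laminin chain of basement membranes, went from 0 reads to 21.5 RPM, and P4HA2, a collagen prolyl hydroxylase, from 0 reads to 18.6 RPM. The endoderm factors divided into early and late. GATA6, which specifies primitive endoderm, had 0 reads in the oocyte and 2-4 cell libraries, then 34.98, 232.3 and 226.2 RPM (-0.04), and PDGFRA, a receptor of the same lineage, was at 130.3 and 269.7 RPM (1.04). HNF4A had 0 reads in all 4 earlier libraries and 20.02 RPM in the blastocyst, and GATA4 went from 1 read to 6.21 RPM (2.52). Fibroblast and endothelial markers, a list that also holds matrix genes such as COL1A2, summed to 38.0 and 106.4 RPM. Their part was not tested. SOX17 had 0 reads in the morula and 4 in the blastocyst, under 1 RPM.

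**Figure D3:**
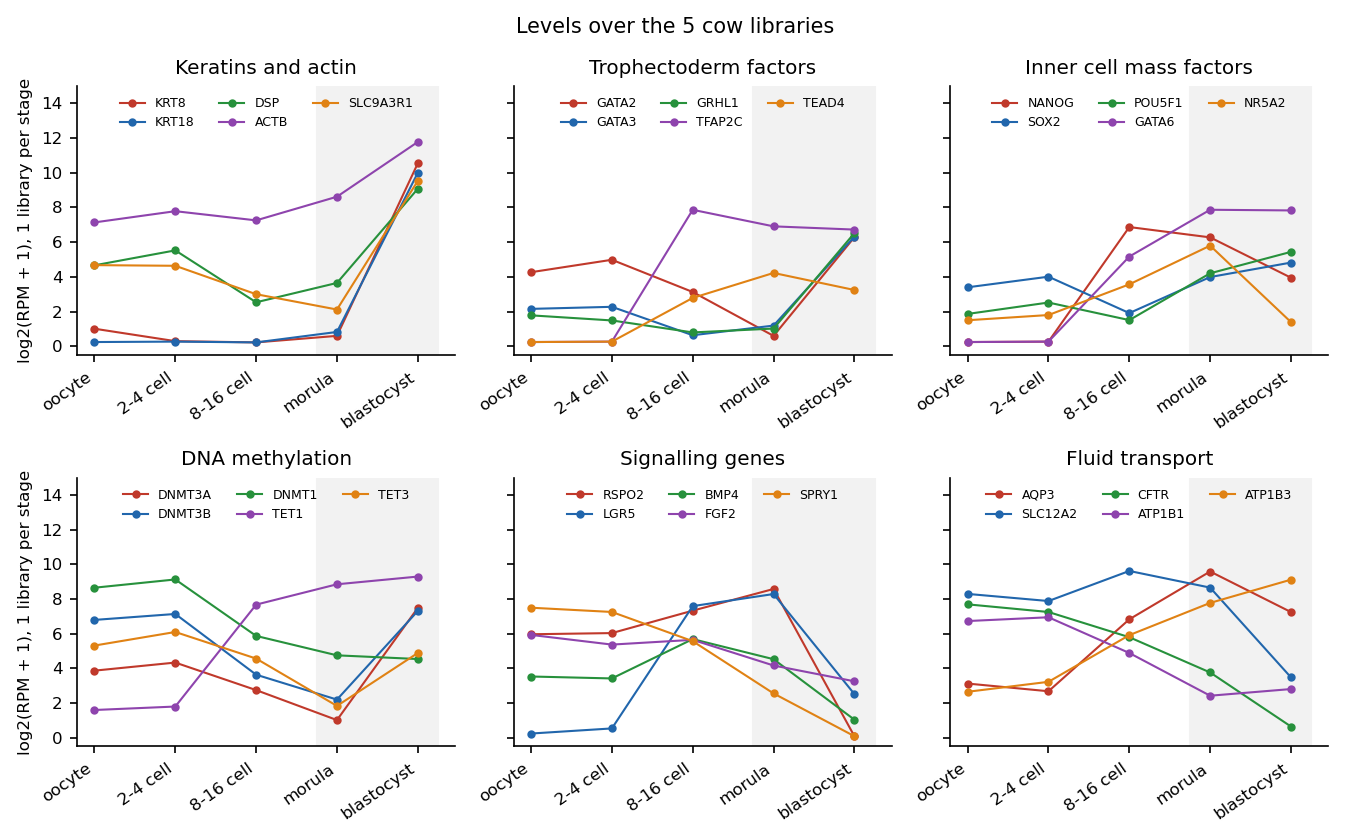
Each line gives log2(RPM + 1) of 1 gene in the 5 cow libraries, 1 library per stage, with the morula and blastocyst shaded. KRT8, KRT18, GATA2, GATA3 and DNMT3A rise from low morula values, TFAP2C, TEAD4 and GATA6 are on before the blastocyst, and RSPO2, LGR5, SLC12A2, CFTR and NR5A2 drop. ATP1B3 and FGF2 were added to the plot after their values were seen.

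WNT pathway genes moved in opposite directions within the list. WNT ligands act through Frizzled receptors with LRP co-receptors, and R-spondins raise receptor levels by binding LGR proteins. Of 26 compared members 7 rose (26.9%) and 6 fell (23.1%), with a median of -0.41. RSPO2, an R-spondin, was at 61.5, 64.4, 159.4 and 380.3 RPM up to the morula and had 0 reads in the blastocyst, at least 1798-fold lower, which was the largest fall of all compared rows. LGR5, an R-spondin receptor, had 0 reads in the oocyte, then 0.451, 191.3, 310.6 and 4.72 RPM (-5.77). Ligand and receptor thus both had their highest value in the morula and fell at this step. LEF1, a nuclear effector of the pathway, was at 136.1, 208.2, 28.7 and 12.3 RPM and at 0 reads in the blastocyst, falling by 3.65. Among the genes that rose, the co-receptor LRP5 went from 0 reads to 21.2 RPM, the ligand WNT6 from 0 reads in all 4 earlier libraries to 15.5 RPM, and WLS, which carries WNT proteins to the cell surface, from 6.41 to 58.5 RPM (3.01). AXIN2, a feedback target of the pathway, was at 3.33 and 6.35 RPM (0.76).

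For FGF signalling through ERK, 6 of 20 compared members rose (30.0%) and 3 fell (15%), but with median scaling 3 rose and 3 fell; the median was 0.12 and took the other sign with median scaling (-0.09) and with scaling to all gene-row reads (-0.17). The receptors rose: FGFR2 was at 7.51, 11.5, 3.13, 1.8 and 30.8 RPM over the 5 libraries (3.51) and FGFR1 at 5.88, 3.15, 2.58, 2.05 and 18.1 RPM (2.64). SPRY4, a feedback inhibitor, was at 5.90 and 26.2 RPM (1.98) and DUSP6, an ERK phosphatase, at 1.03 and 5.15 RPM (1.60). A second sprouty gene went the other way. SPRY1 was at 179.3, 151.2, 46.4 and 4.87 RPM before it reached 0 reads in the blastocyst (-2.47), and ETV5, an ETS factor downstream of FGF, went from 14.1 to 1.13 RPM (-2.83).

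The list of BMP, NODAL and ID genes had 2 of 23 compared members higher (8.70%) and 5 lower (21.7%; 3 with quantile normalisation), with a median of -0.68. BMP4, a ligand of the pathway, was at 10.5, 9.69, 50.4, 22.1 and 1.06 RPM (-3.49), and BMP6, a related ligand, went from 18.7 to 0.564 RPM (-3.66). ID2, an inhibitor of helix-loop-helix factors and a common BMP target, was at 1.01, 3.60, 50.6, 83.1 and 19.3 RPM (-2.05; -1.8 when scaled to non-mitochondrial gene reads and -1.98 with quantile normalisation). SMAD7, an inhibitor of the pathway, went the other way, from 1.8 to 24.3 RPM (3.18). NODAL was at 1.8 and 0.212 RPM (-1.21).

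For the Hippo pathway the shares were near the background: 3 of 21 compared members rose (14.3%) and 1 fell (4.76%), with a median of 0.32. WWC1, KIBRA, an upstream activator, went from 13.6 to 104.4 RPM (2.85), TEAD3 from 8.72 to 55.2 RPM (2.53) and AMOT, angiomotin, from 6.41 to 37.4 RPM (2.37). CTGF, a target of the TEAD complex, was at 30.0 and 5.43 RPM (-2.27).

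Oocyte transcripts still present in the morula ran out. Of 38 symbols in the list 28 were in the table and 19 could be compared; 12 fell (63.2%), none rose, all 19 differences were below 0, and the median was -2.19. ZP2, a zona pellucida protein, was at 3262, 2291, 221.8 and 56.9 RPM and then at 0 reads (-5.77), and BMP15, an oocyte growth factor, at 1180, 1399, 403.9 and 46.2 RPM and then at 0 reads (-5.47). Both were highest at the oocyte or 2-4 cell stage and reached 0 reads in the blastocyst, the deepest library. BTG4, which recruits the deadenylase to maternal mRNA, went from 22.1 to 1.13 RPM (-3.44) and the oocyte factor GDF9 from 8.46 RPM to 0 reads (-3.15). DPPA3, which protects DNA methylation in the zygote, was the member with the smallest difference: 2769, 2062, 1546, 194.4 and 179.4 RPM (-0.12).

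The 9 compared cleavage-stage regulators gave 1 rise and 2 falls. ZSCAN4, a marker of genome activation, had 0 reads in the oocyte and 2-4 cell libraries, 29.5 RPM at the 8-16 cell stage, 21.3 in the morula and 0 reads in the blastocyst (-4.39). ZNF280B was at 105.9 and 16.6 RPM (-2.60), though its row overlaps another.

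The DNA methylation machinery, the subject of the series, rose most in the de novo enzymes. DNMT3A was at 13.6, 19.2, 5.71, 1.03 and 177.8 RPM over the 5 libraries (6.46), and DNMT3B at 109.7, 139.5, 11.4, 3.59 and 157.3 RPM (5.11). Both had their lowest value in the morula and their highest in the blastocyst. The maintenance enzyme DNMT1 was at 400.0, 556.7, 57.4, 25.9 and 22.2 RPM (-0.21), and UHRF1, which guides DNMT1 to replicated DNA, at 355.8, 619.8, 62.8, 9.75 and 3.74 RPM (-1.18). Among enzymes that oxidise methylcytosine, TET3, the oocyte form, was at 38.7, 67.4, 22.6, 2.56 and 28.6 RPM (3.05). TET1 was at 2.03, 2.48, 203.0, 458.8 and 624.9 RPM (0.44; overlapping row). TDG, which excises oxidised methylcytosine, went from 0 reads to 20.02 RPM (4.09). ZFP57, which protects methylation at imprinted regions, was at 17.7, 11.3 and 0.987 RPM from the 8-16 cell stage on (-2.63), and its row overlaps another. In all, 5 of 20 compared members rose (25%) and 3 fell (15%; 1 with scaling to non-mitochondrial gene reads); the median was -0.18, and 0.09 with scaling to non-mitochondrial gene reads.

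In the list of imprinted genes 1 of 22 compared members was higher (4.55%) and 4 were lower (18.2%). The list median was -0.03, and 0.24 with scaling to non-mitochondrial gene reads. The 4 lower members include ZFP57, a regulator of imprints that is also counted in the DNA methylation list. They also include RB1, which is counted again in cell cycle control. PPP1R9A went from 3.08 to 44.0 RPM (3.46). SGCE went from 6.92 to 0.353 RPM (-2.55), and its neighbour PEG10 was at 1.8 and 0.494 RPM (-0.90). IGF2R was at 14.1 and 23.4 RPM (0.69; overlapping row), and PHLDA2 at 1.54 RPM and 0 reads (-1.26).

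In the list of Polycomb and histone methylation genes 2 of 31 compared members rose (6.45%) and 2 fell (6.45%; 4 with median scaling), with a median of -0.61. EZH2, the methyltransferase of the complex that marks histone H3 for repression, was at 63.3, 118.0, 141.0, 116.2 and 53.8 RPM (-1.10), and its partner SUZ12 at 173.1 and 114.2 RPM (-0.60). KDM6B, a demethylase of the same mark, went from 0.513 to 13.8 RPM (3.29), while KDM6A was at 414.7 and 452.8 RPM (0.13). PCGF6, a subunit of a variant Polycomb complex, went from 131.3 to 25.7 RPM (-2.31). Of 21 compared histone genes 4 rose and 4 fell. HIST1H2BB went from 552.4 to 7.69 RPM (-5.99) and HIST1H1A from 17.2 to 0.705 RPM (-3.41), whereas the replication-independent H3F3A was at 380.3 and 224.3 RPM (-0.76). Replication-dependent histone genes are close copies, so the split of their reads is uncertain.

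In cell cycle control 5 of 30 compared genes rose (16.7%) and 5 fell (16.7%), with a median of -0.05 that was 0.23 with scaling to non-mitochondrial gene reads. CCND2, cyclin D2, had 0 reads in the morula and 10.9 RPM in the blastocyst, and the replication helicase subunits MCM5 and MCM7 went from 0.256 to 15.4 RPM (3.70) and from 6.67 to 52.4 RPM (2.80). CCNA1, an early embryonic cyclin A, went from 40.5 to 2.40 RPM (-3.61), and RB1, the retinoblastoma protein, from 42.1 to 4.72 RPM (-2.91; overlapping row). CDKN1A, the p21 inhibitor, was at 4.36 and 20.02 RPM (1.97). Among 20 compared apoptosis regulators 4 rose (20%) and none fell, but 3 rose and 2 fell with median scaling and with all gene-row reads; the median was -0.57, and 0.20 with scaling to non-mitochondrial gene reads (23 members compared). FAS, a death receptor, went from 0 reads to 8.46 RPM (2.94; overlapping row). MCL1, an inhibitor of apoptosis, was at 241.1 and 255.5 RPM (0.08).

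Genes of glucose uptake and glycolysis rose in part. Of 21 compared 10 rose (47.6%) and none fell, with a median of 1.97. SLC2A1, the glucose transporter GLUT1, was at 15.8, 13.3, 24.1, 11.03 and 173.2 RPM over the 5 libraries (3.86), whereas SLC2A3, GLUT3, was at 8.72, 7.66, 1157, 859.6 and 647.3 RPM (-0.41). GLUT1 was highest in the blastocyst, GLUT3 at the 8-16 cell stage. ENO1, enolase, went from 4.10 to 88.4 RPM (4.13) and HK1, hexokinase 1, from 3.59 to 53.9 RPM (3.58). LDHA, a lactate dehydrogenase subunit, was at 616.8, 510.3, 29.6, 6.41 and 68.0 RPM (3.22), a rise to well under its oocyte value.

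In the tricarboxylic acid cycle 3 of 24 compared genes rose (12.5%; 5 with scaling to non-mitochondrial gene reads) and 2 fell (8.33%), with a median of 1.04. MDH2, mitochondrial malate dehydrogenase, went from 10.8 to 72.4 RPM (2.64; overlapping row) and SUCLG1, a succinyl-CoA ligase subunit, from 10.3 to 68.9 RPM (2.63). IDH2, mitochondrial isocitrate dehydrogenase, went from 29.5 to 2.12 RPM (-3.29) and SUCLA2, the partner of SUCLG1, from 347.8 to 54.9 RPM (-2.64). The nuclear genes of the respiratory chain had 14 of 78 compared members higher (17.9%) and none lower, with a median of 1.15 and 68 of 78 differences above 0. NDUFB7, a complex I subunit, went from 1.03 to 20.2 RPM (3.39).

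Lipid genes that rose included those of fatty acid synthesis and desaturation, within a list where 6 of 32 compared members rose (18.8%) and 2 fell (6.25%), with a median of 0.99 (0.85 with members at 0 reads at the floor). FASN, fatty acid synthase, was at 9.94, 9.91, 5.71, 1.8 and 129.8 RPM (5.55). The desaturases FADS1 and FADS2 went from 0.513 to 43.2 RPM (4.87) and from 0 reads to 58.0 RPM, and the lipid droplet coat gene PLIN3 from 1 read to 42.6 RPM (5.12). PLIN2, another droplet coat gene, was at 38.5 and 16.1 RPM (-1.20).

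Lysosomal genes rose in many members: 19 of 40 compared lysosomal and proton pump genes (47.5%) rose and 1 fell, with a median of 1.61 (1.42 with members at 0 reads at the floor). ATP6AP1, an accessory subunit of the proton pump, went from 1 read to 76.7 RPM (5.95), and ATP6V1B1, a pump subunit of acid-secreting epithelia, from 0.513 to 47.2 RPM (4.99). LAMP1, a lysosomal membrane protein, was at 18.5, 63.1, 6.81, 3.08 and 174.6 RPM (5.43). The proteases CTSL1 and CTSD went from 2.31 to 88.1 RPM (4.75) and from 2.31 to 46.9 RPM (3.86).

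Of 24 compared antioxidant genes 9 rose (37.5%) and 3 fell (12.5%), with a median of 1.25. The peroxiredoxins PRDX1 and PRDX6 went from 5.39 to 210.8 RPM (5.05) and from 0.513 to 49.4 RPM (5.06), and TXN, thioredoxin, from 18.5 to 193.9 RPM (3.32). MT2, a metallothionein, was at 0.184, 16.4 and 0.282 RPM from the 8-16 cell stage on (-3.76). Among 29 compared chaperones 5 rose (17.2%) and none fell, with a median of 0.77. HSPB1, the small heat shock protein HSP27, went from 0 reads at the 8-16 cell stage to 16.4 RPM in the morula and 633.0 RPM in the blastocyst (5.19), and CALR, a chaperone of the endoplasmic reticulum, from 26.7 to 217.9 RPM (2.98). Of 17 compared transporters 2 rose (11.8%) and 3 fell (17.6%), with a median of 0.44. SLC25A5, a mitochondrial ADP/ATP carrier, went from 5.13 to 262.6 RPM (5.43), and SLC1A5, a glutamine transporter, from 261.3 to 31.4 RPM (-3.02).

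The machinery of gene expression gave few calls. Cytosolic ribosomal protein genes had 6 of 80 compared members higher (7.50%) and none lower, against 11.9% of all rows, with 10 of 80 higher under scaling to non-mitochondrial gene reads and 12 of 80 with quantile normalisation. In RPM 68 of 80 differences were above 0, the median was 0.79, and their summed share of the reads went from 0.974% (95% Wilson interval 0.965 to 0.984) to 1.77% (1.76 to 1.78). RPS29 and RPL39, the members with the largest differences, had 0 reads in all 4 earlier libraries and 26.1 and 8.88 RPM in the blastocyst. Many such genes have processed copies, so the split of their reads is uncertain. Mitochondrial ribosomal protein genes had 2 of 76 higher (5 with scaling to non-mitochondrial gene reads) and 2 lower, with a median of 0.15 (-0.05 with median scaling). Translation factors had 2 of 61 higher (0 with median scaling) and 1 lower, with a median of -0.18 (0.10 with scaling to non-mitochondrial gene reads).

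Ribosome biogenesis genes had 1 of 44 compared members higher and 2 lower, with a median of -0.31, and UTP20, a processome component, went from 785.5 to 102.3 RPM (-2.93). Proteasome genes had 3 of 45 higher and 1 lower (3 with median scaling), with a median of 0.59. PSMB9, an immunoproteasome subunit, had 0 reads in all 4 earlier libraries and 4.58 RPM in the blastocyst. Splicing genes had 2 of 60 higher and 3 lower (1 with quantile normalisation), with a median of -0.32; SNRPG, a core spliceosome protein, went from 2 reads to 144.1 RPM (6.58). ZNF genes, mostly transcriptional repressors, had 13 of 196 higher (6.63%; 22 of 205 with scaling to non-mitochondrial gene reads and 8 with median scaling) and 21 lower (10.7%), with a median of -0.29. ZNF609 was at 30.8, 60.4, 108.2, 1191 and 114.4 RPM (-3.37; overlapping row) and ZNF608 at 5.27, 9.69, 277.2, 343.4 and 28.1 RPM (-3.57).

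Rows of the mitochondrial chromosome differed by kind. Over all 34 rows 3 rose and 3 fell, with none lower under scaling to non-mitochondrial gene reads and 1 higher with median scaling or quantile normalisation. The 2 rows at the place and of the size of the ribosomal RNA genes (955 and 1571 bases) took 6.58% of the morula reads (95% Wilson interval 6.55 to 6.60) and 25.1% of the blastocyst reads (25.05 to 25.09), and the other mitochondrial rows 2.58% (2.56 to 2.59) and 5.14% (5.13 to 5.15). The larger of both, ENSBTAG00000043570, was 4.83 times as high in the blastocyst in RPM (counting interval 4.81 to 4.86; difference 2.27, and 0 with quantile normalisation, where it is the top row of both libraries). Of 10 rows with a protein symbol 9 had a difference above 0, with a median of 0.68, and 1 rose: COX1, a cytochrome oxidase subunit, was at 2966, 2981, 15499, 3539 and 16318 RPM over the 5 libraries (2.20; 1.25 with quantile normalisation and 1.98 with median scaling; overlapping row). COX1 was thus lower in the morula than in the libraries on either side. The complex I subunits ND5 and ND1 were at 5519 and 5665 RPM (0.04; overlapping row) and at 2915 and 3404 RPM (0.22), and the rows ATP8 and MT-ND4L at 5096 and 10630 RPM (1.06) and at 3788 and 7356 RPM (0.96). In 17 of the 22 short rows of 60 to 75 bases, the size of transfer RNA genes, the difference was below 0, with 3 lower, 1 higher and a median of -1.28. Some rows span several genes, such as ATP8 (8129 to 9750), so a row is not always 1 transcript.

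**Figure D4:**
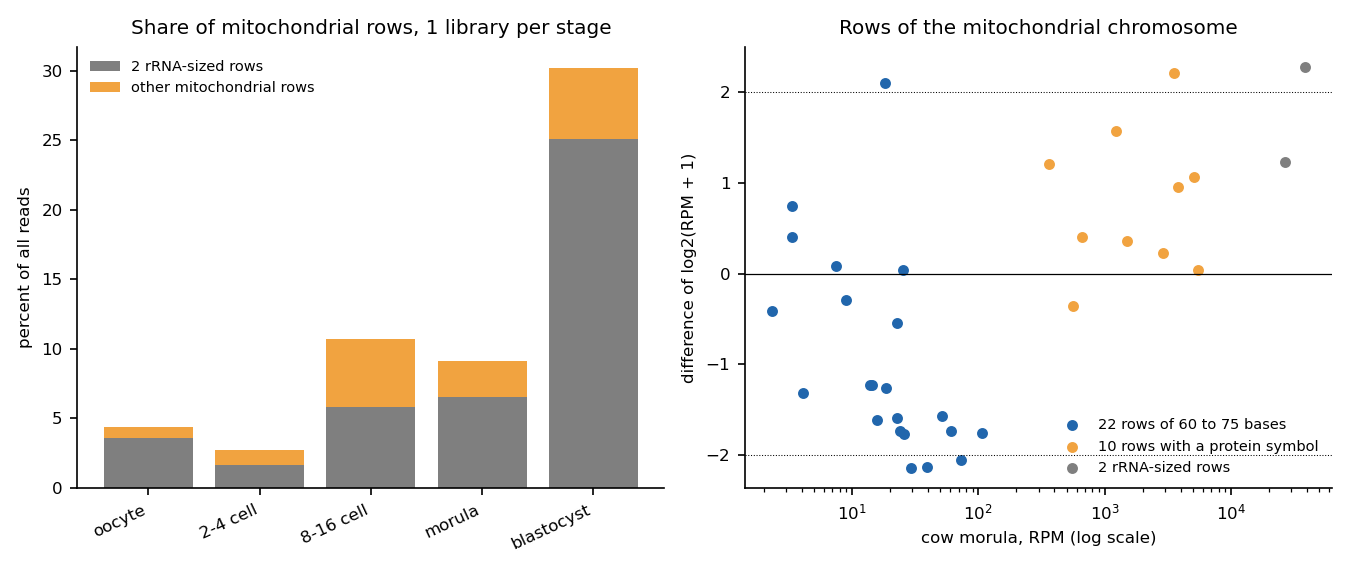
The left bars give the percent of all reads in mitochondrial rows in each of the 5 cow libraries, split into the 2 rRNA-sized rows and the rest (30.2% in all for the blastocyst). The right points are single mitochondrial rows, with morula RPM on a log axis and the difference of log2(RPM + 1) on the y axis; the rRNA-sized rows and most protein rows lie above 0 and most short rows below.

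Several of the largest rises fell outside the lists. A2M, the protease inhibitor alpha-2-macroglobulin, had 0 reads in all 4 earlier libraries and 165.8 RPM in the blastocyst, at least 215.6-fold above the morula floor. DAPK1, a death-associated kinase, was at 12.2, 12.6, 3.50, 0.513 and 225.6 RPM (7.23), AKAP12, a kinase anchor protein, at 37.7, 57.7, 6.81, 2.56 and 361.6 RPM (6.67), and the surface glycoprotein CD24 at 3.25, 2.25 and 5.34 RPM, then 0 reads and 134.5 RPM. All 3 had their lowest value in the morula. SCEL, sciellin of cornified epithelia, went from 1 read to 143.7 RPM (6.85), RIN3, a Rab5 exchange factor, from 0 reads to 137.8 RPM (6.82), and TLE3, a Groucho co-repressor, from 1 read to 134.8 RPM (6.76). Among the rows with 0 reads in all 4 earlier libraries, the highest in the blastocyst after A2M and PAG2 were P2RX6, an ATP-gated channel subunit (95.8 RPM), CRIP1, a LIM protein (95.3 RPM), and TCAF2 (70.4 RPM), followed further down by PRSS8, the epithelial protease prostasin (47.3 RPM), and ANXA1 (26.6 RPM).

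Several large falls were of genes high in the 8-16 cell embryo or the morula. ZCCHC6, the terminal uridylyltransferase TUT7 that marks RNA for decay, was at 181.8, 136.3, 3911, 2790 and 49.7 RPM (-5.78). BRDT, a bromodomain protein known from the germ line, was at 5.88, 3.38, 252.8, 163.4 and 1.06 RPM (-6.32), and SFXN1, a mitochondrial serine carrier, at 1.22, 3.83, 66.3, 639.4 and 6.63 RPM (-6.39). TKTL1, a transketolase-like gene on the X chromosome, was at 20.7, 36.3, 47.5, 169.0 and 0.141 RPM (-7.22), and MLLT3, a chromatin reader, at 37.3, 40.8, 53.9, 169.8 and 1.06 RPM (-6.37). ZCCHC6 and BRDT thus peaked at the 8-16 cell stage, SFXN1, TKTL1 and MLLT3 in the morula. CSF1R, a cytokine receptor, was at 81.7, 102.5, 33.3 and 47.7 RPM and at 0 reads in the blastocyst, at least 225.5-fold lower.

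A peak in the morula, 2 or more above both the 8-16 cell and the blastocyst library, was found in 181 rows with a symbol. The highest that overlap no other row were LCLAT1, an acyltransferase of cardiolipin metabolism (102.0, 850.9 and 172.1 RPM from the 8-16 cell stage on), AQP3, UTRN, utrophin (166.6, 714.0 and 141.2 RPM), and SLC8A1, a sodium-calcium exchanger (73.6, 703.0 and 34.5 RPM). With quantile normalisation LCLAT1, UTRN and AQP3 missed the threshold (-1.90, -1.90 and -1.94). MED12L, BCAS3, ZNF609, TMEM169 and PECR were higher but overlap other rows. BCAS3 missed the threshold with quantile normalisation (-1.77) and with scaling to non-mitochondrial gene reads (-1.82). TMEM169 and PECR overlap each other and had 3406 and 3389 morula reads, so they may hold the same reads.

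Markers of cells that could come along with an embryo were measured as well, and their part in the results was not tested. The table held 19 cumulus and granulosa markers, of which 10 were compared, 3 rose and 1 fell; the summed level was 70.0 RPM in the morula and 1018 in the blastocyst, of which PTGS2 alone made up 902.3 RPM, while AMH and FOXL2 had 0 reads in both libraries. CYP19A1, aromatase, which also acts in trophoblast, went from 5.90 to 48.8 RPM (2.85) and VCAN, versican, from 22.1 RPM to 0 reads (-4.44). The 12 oviduct and uterine markers summed to 13.6 and 26.9 RPM, with 1 of 7 compared higher (3 with scaling to non-mitochondrial gene reads) and 1 lower and FOXJ1 at 0 reads in both. PAX8, a factor of oviduct epithelium, rose from 0 reads to 3.95 RPM (2.01; 1.83 with median scaling), and OVGP1, the oviduct glycoprotein, fell from 5.64 to 0.282 RPM (-2.37). The 18 sperm markers summed to 53.9 and 73.3 RPM, with 1 of 7 higher and 2 lower and PRM1, ODF1 and AKAP4 at 0 reads in both. The sperm marker that rose was TNP1, a spermatid nuclear protein, with 0 reads in the morula and 4.37 RPM in the blastocyst. Its difference was 2.13, but 1.95 with median scaling and 1.73 at equal depth. The 2 sperm markers that fell were LDHC, from 26.7 to 3.46 RPM (-2.63), and ACRV1, from 6.16 RPM to 0 reads (-2.75). The 17 blood and immune markers summed to 59.2 and 13.6 RPM, with 1 of 6 higher and 1 lower and CD3E and HBB at 0 reads in both. CSF1R made up 47.7 RPM of the morula sum and fell to 0 reads, PTPRC, the leukocyte antigen CD45, was at 6.92 and 1.55 RPM (-1.64; overlapping row), and LYZ, lysozyme, rose from 0 reads to 4.37 RPM (2.13; 1.95 with median scaling). Among 13 fibroblast and endothelial markers, which summed to 38.0 and 106.4 RPM, 4 of 7 compared rose and 1 fell. Those that rose included PECAM1, the adhesion protein CD31, from 1.54 to 55.5 RPM (4.48), and COL1A2, from 0 reads to 14.03 RPM. The marker that fell was DCN, decorin, from 24.1 to 2.04 RPM (-3.04). COL1A1 had 0 and 9 reads and LUM 2 and 0 reads.

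The pig morula and blastocyst libraries gave the same comparison in a second species, in a table scaled separately (3002751 and 3729816 reads; mitochondrial share 16.3% and 18.6%). Of 8483 symbols compared in both species, 13.6% were higher and 12.8% lower in the pig blastocyst. Among 963 paired genes higher in cow, 355 were higher in pig (36.9%) and 65 lower (6.75%), with a median pig difference of 1.33. Among 934 paired genes lower in cow, 286 were lower in pig (30.6%) and 44 higher (4.71%), with a median of -1.25. In both species KRT8 (pig 0.333 to 3629 RPM) and KRT18 (pig 4.66 to 2681 RPM) rose, as did PTGS2 (pig 12.3 to 1809 RPM), GATA3 (pig 0.999 to 172.7 RPM) and GATA2 (pig 0 reads to 133.8 RPM). RSPO2 (pig 24.3 RPM to 0 reads), BMP15 (pig 79.6 to 5.09 RPM) and TKTL1 (pig 204.2 to 2.68 RPM) fell in both.

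The lists also differed in their pig values. Lysosomal genes rose in 22 of 32 members with a pig value, with a median of 3.0 in pig, and cytosolic ribosomal protein genes in 28 of 46, with a median of 2.36. For the pluripotency factors 0 of 13 rose and 3 fell in pig, with a median of -1.02. DNMT3A and DNMT3B, which rose in cow, were at 21.0 and 42.4 RPM (0.98) and at 91.6 and 113.7 RPM (0.31) in pig, and DNMT1 fell there from 362.3 to 30.0 RPM (-3.55). FN1 rose from 5.33 to 48.8 RPM in pig (2.98). TFAP2A, under the threshold in cow, went from 0.333 to 212.1 RPM in pig (7.32). None of these differences between the species was tested.

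**Figure D5:**
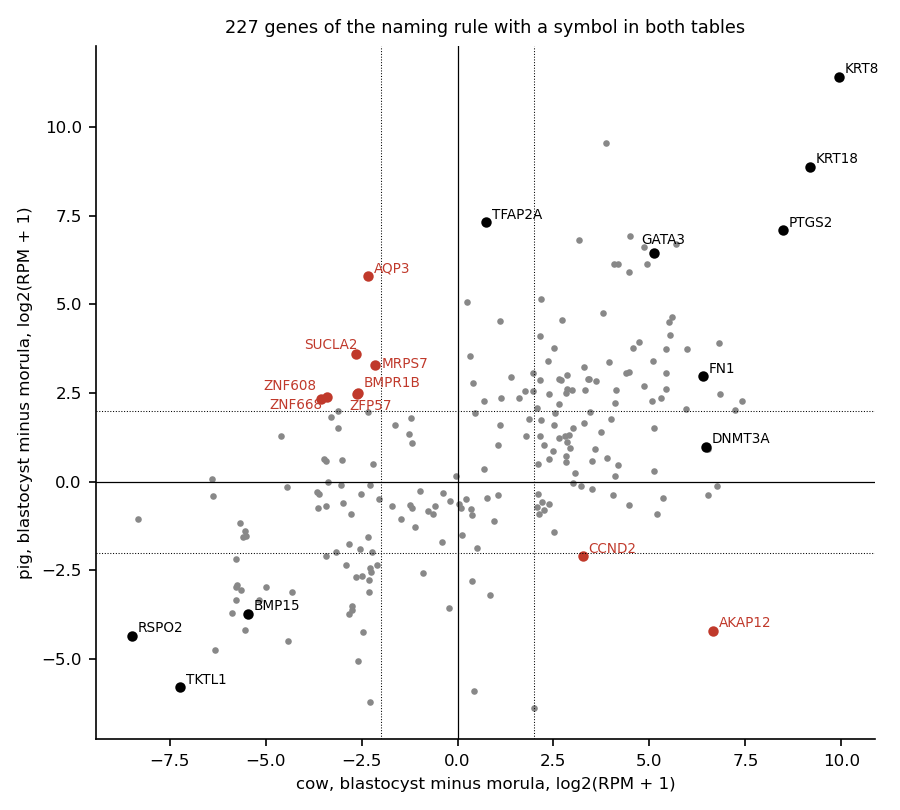
Each point is 1 of 227 named genes with a symbol in both tables, with the cow difference of log2(RPM + 1) between blastocyst and morula on the x axis and the pig difference on the y axis. Dotted lines mark 2 and -2; black points are named genes and red points the 9 genes that changed in opposite directions, with KRT8 and KRT18 at the top right and AQP3 at the top left.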

How the data were processed

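The authors deposited 1 table per species with log2 values per gene row and stage. From the values, the log2 scale is log2 reads per 1000000 reads, with 0 reads at 0.9 of a read, and at least 99.985% of cow values above 0 are whole reads within 0.1 read. Per the labels' protocols, RNA was isolated with a PicoPure kit, amplified with the Ovation RNA-Seq System V2 and given 8 PCR cycles, with no molecular identifiers described, so reads are not independent molecules. The submitters' processing notes name Trim Galore 0.6.4, HISAT2 2.1.0 and the builds UMD3.1 and Sscrofa11.1; the counter, annotation, strand and duplicate handling are not given in the sources used here. Coordinates are those of the cow table.

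RPM was taken as 2 to the deposited value. Differences of log2(RPM + 1) were computed for rows with 1 RPM or more in either library and called at 2. Intervals are 95% Wilson intervals for shares, and exact conditional binomial intervals for ratios of reads; against 0 reads a fold is a lower bound from a floor of 3 reads. There is no test and no p-value, because each stage has 1 library. Members and 42 gene lists were chosen with earlier results of these data known. Named genes are the core members of each list, up to 4 further called members per list, the 20 largest rises and falls without overlap, the 10 rows with most reads per library, the 10 highest rows without reads before or in the blastocyst, and the 10 highest morula peaks; values of other members are given only as counts. List members were found by symbol or by an older symbol in RefSeq's cow gene table (ARS-UCD2.0, names only). The calling steps were tested on simulated data, which does not check the calls in these amplified libraries without replicates. Analyses used Python 3.11.15, pandas 2.3.3, numpy 2.4.6, scipy 1.17.1 and statsmodels 0.14.6. Other pseudocounts, minimums, thresholds and scalings were tried, as was thinning. A few members of the lists are counted but not reported by name here.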

Additional observations from a re-analysis of the deposited data

Results flagged for a closer look

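Of 176 named cow genes that changed and had a pig value, 9 changed by 2 or more in the opposite direction in the pig. Each species had 1 library per stage, so these differences between the species were not tested. AKAP12, a kinase anchor protein, rose in cow (6.67) and fell in pig (-4.20, from 61.9 to 2.41 RPM), as did CCND2, cyclin D2 (3.27 in cow and -2.10 in pig, where the blastocyst had 0 reads). The other 7 fell in cow and rose in pig. AQP3, the aquaporin, had a cow difference of -2.34 and a pig difference of 5.80, with pig values of 0.333 and 73.5 RPM. BMPR1B, a BMP receptor, was at -2.59 in cow, with 0 reads in the blastocyst, and at 2.51 in pig. SUCLA2, a succinyl-CoA ligase subunit, was at -2.64 and 3.59, and MRPS7, a mitochondrial ribosomal protein, at -2.14 (-1.95 when scaled to non-mitochondrial gene reads) and 3.30. ZFP57, the imprint regulator, was at -2.63 in cow and 2.48 in pig. The zinc finger genes ZNF608 and ZNF668 were at -3.57 and 2.34 and at -3.40 and 2.39.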

How the results depend on the processing

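No paired analysis was possible because each stage has 1 library, and for the same reason no replicate could be left out. With a threshold of 1 in place of 2, 7199 rows changed (3462 higher, 3737 lower), and with a threshold of 3, 1032 changed (551 higher, 481 lower). A pseudocount of 0.25 gave 2097 higher and 2262 lower rows. With the minimum applied after scaling, the median difference was 0.17 with scaling to non-mitochondrial gene reads, -0.29 with all gene-row reads and -0.32 with median scaling, against -0.11. The share of higher rows among those that changed was 50.8%, and 59.9%, 43.8% and 42.6% under those scalings. With no minimum RPM, the median of the fibroblast and endothelial markers was -0.24 in place of 2.25. Of 238 named genes that changed, 229 kept the call with non-mitochondrial scaling, 232 with all gene-row reads, 226 with median scaling, 226 with quantile normalisation and 235 at equal depth, and none reversed under these settings. Writing 0 reads as 0 RPM, an alternative chosen after seeing the data, kept all 238. The smaller morula library limits low genes: 0 reads there allow up to 0.769 RPM.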

Other observations

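The differences varied with the genomic span of the row, a pattern looked at after the data were seen and given as values. With the compared rows split by span into 5 groups of like size, from the shortest to the longest, the median difference was 0.34, 0.16, -0.11, -0.37 and -0.54. The share of higher rows was 14.4% in the shortest group and 9.51% in the longest, and the share of lower rows 8.72% and 17.4%. Among chromosomes, the median was 0.46 on chromosome 25 and 0.36 on chromosome 19, and -0.58 on chromosome 20 and -0.55 on chromosome 6.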
